A study of Rattus norvegicus with 18 samples.

Results

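Matrix proteases, ADAM enzymes and protease inhibitors were followed in the left ventricle of rats with and without metabolic syndrome. Members were all genes whose symbol begins with Mmp, Timp, Adam or Serpin followed by the family number or letter, together with the Adamts and Adamtsl genes, leaving out Mmp8 and Serpinh1. The rule found 41 genes among the 6588 genes of the authors' 3 deposited tables of changed genes. Of these 41 genes, 9 are Mmp genes, 2 Timp, 7 Adam, 11 Adamts or Adamtsl and 12 Serpin genes. The tables come from polyadenylated RNA of the left ventricle of 18 male rats, 6 per group: Wistar Kyoto rats (WKY), the control strain, ZSF1 lean rats, which are hypertensive, and ZSF1 obese rats, in which metabolic syndrome is added to hypertension and which stand for HFpEF (heart failure in which the ejection fraction is preserved). The ZSF1 strain is a hybrid of Zucker diabetic fatty and spontaneously hypertensive heart failure rats, so that both ZSF1 groups share a background that WKY rats lack, and the obese animals have no working leptin receptor. No label used here gives the age of the rats.

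Each table compares 6 rats with 6. It gives a gene's fold change and adjusted p-value, and it lists a gene where the fold is at least 2 or at most 0.5 and the adjusted p is under 0.05. In the table for lean against WKY hearts the largest adjusted p was 0.000347, so its limit or settings may have been stricter, and its number of listed members cannot be set directly against those of the obese tables. Here a gene called listed, higher or lower passed both thresholds of the authors' DESeq2 test. Values per rat, mean levels and standard errors are not part of these tables. Depth and a member's spread between rats are therefore unknown, and no level can be compared between genes. The adjusted p reflects fold, count level and spread together, so it does not give the spread alone. A gene in no table either missed a threshold or was not tested, which the tables do not separate.

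The matrix metalloproteinases (MMPs) are zinc enzymes that cut collagens, elastin, proteoglycans and growth factor precursors, and most are made as inactive precursors. The tissue inhibitors of metalloproteinases (TIMPs) block their active site. ADAM proteins are membrane-bound relatives that release the outer parts of cytokines, growth factors and adhesion molecules from the cell surface, and the secreted ADAMTS enzymes cut proteoglycans, procollagens and fibrillin-associated proteins, while the ADAMTS-like proteins share their matrix-binding modules and have no protease domain. Serpins trap serine proteases, such as plasminogen activators, thrombin, elastase and granzymes, by changing shape. In the heart the balance of these enzymes and inhibitors is known for its part in the turnover of the collagen network.

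In obese against lean hearts 34 members were listed, 26 higher and 8 lower. In that table, the share of higher genes among all listed was 53.4%, against 76.5% of the listed members. In obese against WKY hearts 34 members were listed as well, 27 higher and 7 lower, so that 79.4% of listed members were higher, beside 54.0% of all listed genes. In lean against WKY hearts 1 member was listed, and it was lower, as were 36.1% of all listed genes of that table. RefSeq holds 129 protein-coding genes that fit the rule, Mmp24os among them, which encodes no protease. The 34 listed in each obese comparison are 26.4% of these, close to the 22.8% of all RefSeq protein-coding symbols that were listed in obese against lean hearts and to the 22.9% in obese against WKY hearts. In lean against WKY hearts the share was 0.775% of members beside 0.881% of all symbols. The members were thus listed about as often as other genes, and no test was made of the difference in direction. The median fold of listed members was 2.82 in obese against lean hearts, where it was 2.1 over all listed genes. Those that rose had a median of 3.56 beside 3.01 over all genes that rose, and those that fell had a median of 0.387 beside 0.314. Against WKY hearts the median over listed members was 2.81, beside 2.11 over all listed genes. There the members that rose had a median of 3.01, slightly below the 3.05 of all genes that rose, and those that fell had a median of 0.332 beside 0.312.

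**Figure D1:**
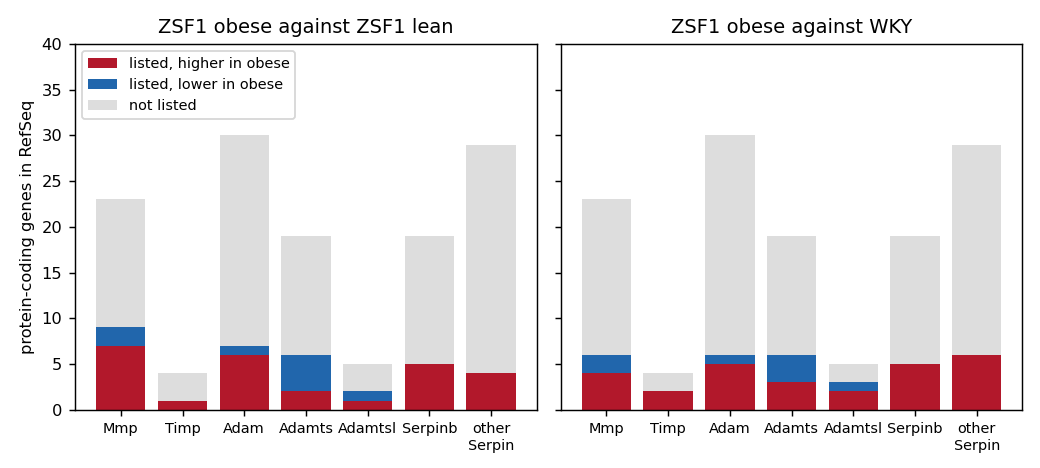
Number of RefSeq protein-coding genes (vertical axis) in each family that were listed as higher (red), listed as lower (blue) or not listed (grey) in ZSF1 obese against ZSF1 lean hearts (left) and against WKY hearts (right). All listed Serpin genes were higher (9 on the left, 11 on the right), and the Adamts genes were divided between both directions.

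The 2 obese comparisons share the 6 obese rats, so their values are given side by side and not as separate support. Of the 41 members 27 were in both obese tables, 20 of them higher in both and 7 lower in both. Another 7 were in the table against lean hearts and not in that against WKY hearts, and 7 were in the table against WKY hearts and not in that against lean hearts.

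**Figure D2:**
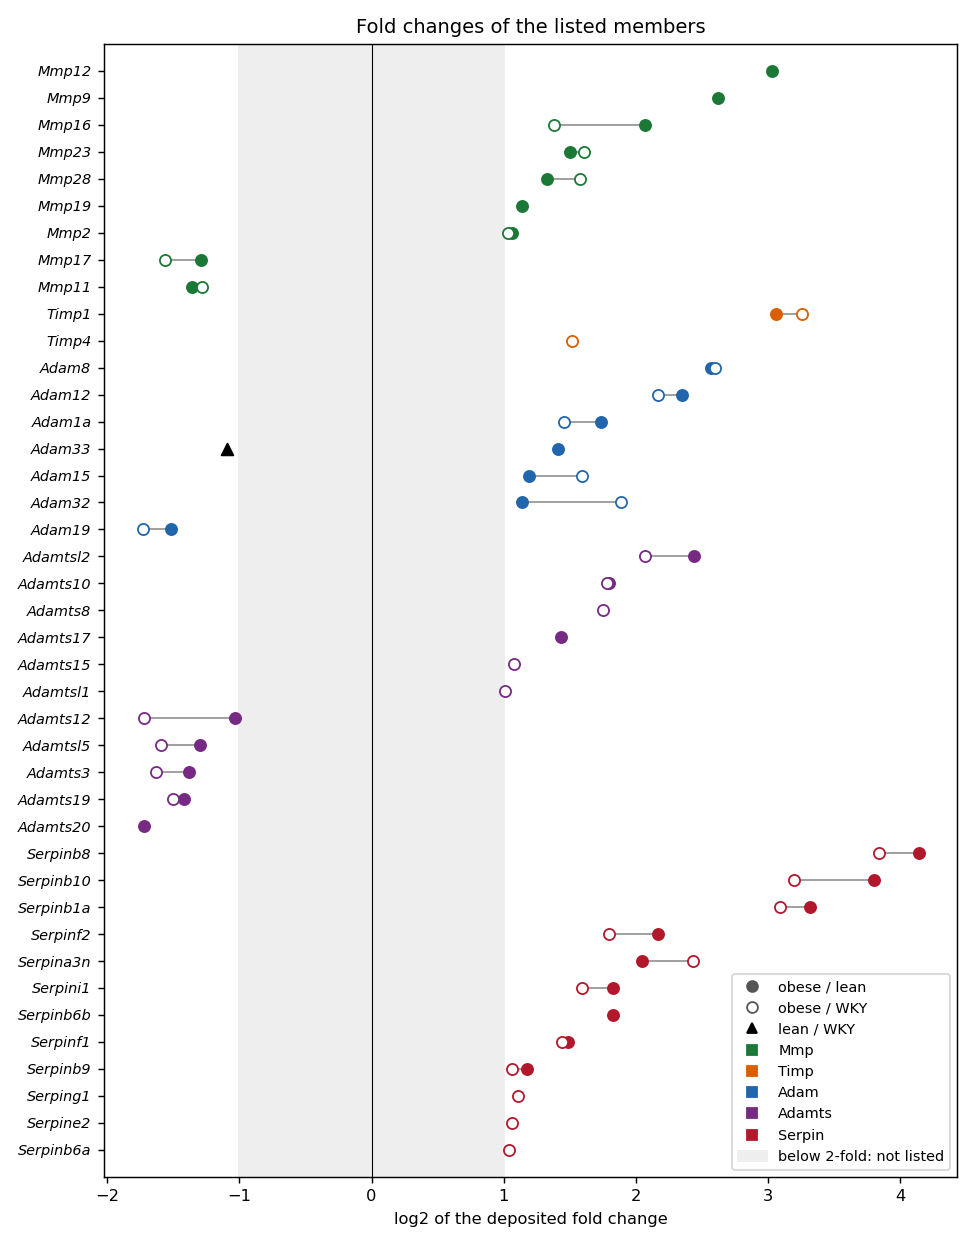
Fold change of each of the 41 members on the log2 scale (horizontal axis), for obese over lean hearts (filled circles), obese over WKY hearts (open circles) and lean over WKY hearts (triangle), coloured by family. The grey band is the range below a 2-fold change, where no gene is listed. Serpinb8 lies farthest to the right, and the genes to the left of the band are Mmp11, Mmp17, Adam19 and 5 Adamts or Adamtsl genes, with Adam33 there for lean over WKY.

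Among the 23 Mmp genes of the rule in RefSeq, 7 rose and 2 fell in obese against lean hearts, and 4 rose and 2 fell against WKY hearts. The shares listed were 39.1% and 26.1%, beside 22.8% and 22.9% of all protein-coding symbols. Mmp12, the macrophage elastase (ENSRNOG00000030187), had a fold of 8.17 for obese over lean, the largest of the 9 MMP genes followed here (Mmp8 being left out), in the authors' deposited table (DESeq2, adjusted p = 0.00147). Mmp9, the larger of both gelatinases and a product of neutrophils and macrophages (ENSRNOG00000017539), followed with 6.15 (2.29e-05 as its adjusted p in the authors' deposited table). Neither Mmp12 nor Mmp9 was in the table against WKY hearts, and neither was Mmp19, a secreted MMP which the authors' deposited table gives at 2.20 for obese over lean (adjusted p = 1.29e-05). Mmp2, the gelatinase made chiefly by mesenchymal cells, was near the 2-fold limit in both, at 2.09 against lean (adjusted p = 1.34e-06) and 2.04 against WKY hearts (adjusted p = 0.000577) in the authors' deposited tables.

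The AP-1 motif TGANTCA, a site of the Fos and Jun factors that is known from several MMP promoters, and 3 other motifs were searched on both strands of the RefSeq promoters, from 250 bases before to 50 bases after each gene's start (build GRCr8). The promoter of Mmp12 is shown because it held both the AP-1 letters, which stand in capitals below and begin at position -87 from the start, and a TATA box at position -39. The run gives the 250 bases before the start, 5′ to 3′.
Mmp12, chr8:12866402-12866651, plus strand: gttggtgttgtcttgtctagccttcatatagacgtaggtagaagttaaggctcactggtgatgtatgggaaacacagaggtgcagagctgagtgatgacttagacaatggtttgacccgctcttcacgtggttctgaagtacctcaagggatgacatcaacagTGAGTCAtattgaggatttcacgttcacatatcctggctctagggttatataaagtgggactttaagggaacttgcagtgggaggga

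Of the MMPs held at the membrane, Mmp16 rose and Mmp17 fell. Mmp16, membrane type 3 MMP, had a fold of 4.20 against lean and 2.60 against WKY hearts in the authors' deposited tables, with adjusted p-values of 0.00948 and 0.0336, the largest of the listed MMPs in both. Mmp17, which is tied to the membrane by a lipid anchor, stood at 0.409 of the lean level (adjusted p = 5.15e-07) and at 0.339 of the WKY level (adjusted p = 2.22e-10) in the authors' deposited tables. Mmp23, a membrane-tethered MMP without the usual haemopexin domain, had folds of 2.83 and 3.05 against lean and WKY hearts in the authors' deposited tables (adjusted p = 1.63e-08 and 5.12e-08). Mmp28, known as epilysin, rose by folds of 2.51 and 2.99 in the authors' deposited tables (adjusted p = 9.27e-06 and 3.49e-07). Mmp11, or stromelysin-3, which is activated inside the cell by furin, stood at 0.390 of the lean level (adjusted p = 2.96e-18) and 0.412 of the WKY level (adjusted p = 7.28e-12) in the authors' deposited tables, the smallest adjusted p-values of any MMP in both. Mmp1b, Mmp13 and Mmp14, the gene of membrane type 1 MMP, were in none of the tables. The neutrophil collagenase gene Mmp8, which the rule leaves out, rose 20.3-fold over lean in the authors' deposited table, above that of any MMP followed here. Mmp8 was not in the table for obese against WKY hearts, and it was lower in lean than in WKY hearts.

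Of the 4 TIMP genes, Timp1 rose in both obese comparisons. Timp1 (ENSRNOG00000010208), the inducible inhibitor that also binds the precursor of MMP9, rose 8.34-fold over lean (adjusted p = 2.51e-13) and 9.58-fold over WKY hearts (adjusted p = 6.29e-15) in the authors' deposited tables. These folds rank 97 among the 3045 genes that rose against lean hearts and 88 among the 3084 that rose against WKY hearts. Timp4, the TIMP known for its high level in heart muscle, rose 2.87-fold over WKY (adjusted p = 3.76e-07, from the authors' deposited table) and was not in the one against lean hearts. Timp2 and Timp3 were in none of the tables. In the window searched, the Timp1 promoter held neither the exact AP-1 nor the TATA letters but 1 GC box (GGGCGG, read here on the other strand). Near matches to the AP-1 letters, such as the TGAGTAA in the sequence below, were not counted. This promoter is shown, with the GC box in capitals, since Timp1 was the member with the largest fold outside the serpins in both comparisons.
Timp1, chrX:3771123-3771372, minus strand: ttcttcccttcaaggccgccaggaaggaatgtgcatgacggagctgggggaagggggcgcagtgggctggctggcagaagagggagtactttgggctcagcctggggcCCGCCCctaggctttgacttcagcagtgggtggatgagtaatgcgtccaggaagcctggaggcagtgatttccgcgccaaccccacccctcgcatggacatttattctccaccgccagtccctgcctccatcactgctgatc

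Among the 30 ADAM genes in RefSeq, 6 rose and 1 fell against lean hearts, and 5 rose and 1 fell against WKY hearts. The shares listed were 23.3% and 20.0%, beside 22.8% and 22.9% of all protein-coding symbols. Adam8, a leukocyte ADAM that cuts adhesion molecules, had folds of 5.94 and 6.06 against lean and WKY hearts in the authors' deposited tables (adjusted p = 1.63e-08 and 5.47e-11). Adam12, known as meltrin alpha and found in mesenchymal cells, had folds of 5.10 and 4.50 in the authors' deposited tables, with a weaker test against WKY hearts (adjusted p = 0.0285) than against lean hearts (adjusted p = 0.00264). Adam15, an ADAM known from endothelial cells, rose less, by folds of 2.28 and 3.01, with the smallest adjusted p-values among the ADAM genes that rose (1.20e-26 and 6.58e-41 in the authors' deposited tables). Adam1a and Adam32, which are known from sperm and testis, were also listed, with folds of 3.34 and 2.20 against lean hearts and 2.75 and 3.71 against WKY hearts in the authors' deposited tables. Of these, Adam32 against lean hearts was just inside the adjusted p threshold (0.0463 in the authors' deposited table).

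Adam19, known as meltrin beta and needed for the septa and valves of the developing heart (ENSRNOG00000042980), was the ADAM gene that fell. It stood at 0.349 of the lean level (adjusted p = 3.55e-33) and at 0.301 of the WKY level (adjusted p = 6.32e-26) in the authors' deposited tables. Its promoter is the other one with the AP-1 letters among the 29 of 41 members whose promoter was matched. The letters stand in capitals below, at position -169. The AP-1 letters were thus found before a gene that rose and before a gene that fell.
Adam19, chr10:30992511-30992760, plus strand: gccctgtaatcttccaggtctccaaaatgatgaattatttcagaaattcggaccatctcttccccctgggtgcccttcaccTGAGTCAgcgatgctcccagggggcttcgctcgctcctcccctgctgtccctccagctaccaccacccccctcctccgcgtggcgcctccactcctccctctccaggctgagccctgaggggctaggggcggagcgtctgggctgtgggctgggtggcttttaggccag

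Adam33, an ADAM of fibroblasts and smooth muscle (ENSRNOG00000021242), was the member listed in lean against WKY hearts. It stood at 0.47 of the WKY level in lean hearts (adjusted p = 5.45e-06) and at 2.66 times the lean level in obese hearts (adjusted p = 5.40e-11) in the authors' deposited tables, and it was not in the table for obese against WKY hearts. The product of both folds is 1.25, within the 2-fold range that the tables leave out. Adam10 and Adam17, the main sheddases of Notch and of tumour necrosis factor, were in none of the tables.

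The ADAMTS group had members in both directions, with 3 of 8 listed genes higher against lean hearts and 5 of 9 against WKY hearts. Of its 24 genes in RefSeq, 33.3% and 37.5% were listed, beside 22.8% and 22.9% of all protein-coding symbols. Adamts10 and Adamtsl2, whose proteins bind fibrillin and underlie acromelic dysplasias in humans, rose in both comparisons. Adamts10 (ENSRNOG00000008857) had folds of 3.48 against lean and 3.43 against WKY hearts, and its adjusted p of 8.75e-46 against lean hearts was the smallest of all members in the authors' deposited table. Adamtsl2 (ENSRNOG00000027742) had folds of 5.43 and 4.20 in the authors' deposited tables (adjusted p = 7.55e-34 and 1.12e-22). Adamts17, a close relative of Adamts10, rose 2.69-fold over lean in the authors' deposited table, with an adjusted p of 0.00608, and was not in the table against WKY hearts.

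Adamts8, Adamts15 and Adamtsl1 were in the table against WKY hearts and not in that against lean hearts. Adamts8 and Adamts15, which cut aggrecan and versican and are direct neighbours in the RefSeq gene order (assembly GRCr8), had folds of 3.36 and 2.11 there (adjusted p = 3.50e-06 and 5.91e-05 in the authors' deposited table). Adamtsl1 was the member closest to the limit, with a fold of 2.01 against WKY hearts in the authors' deposited table.

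The ADAMTS genes that fell were Adamts3, Adamts12, Adamts19 and Adamtsl5 in both obese comparisons, and Adamts20 against lean hearts. Adamts19, known for its part in heart valves, stood at 0.374 and 0.354 of the lean and WKY levels in the authors' deposited tables (adjusted p = 6.59e-16 and 7.17e-18). Adamtsl5 stood at 0.406 and 0.332 in the authors' deposited tables (adjusted p = 1.25e-11 and 3.76e-15). Adamts3, which removes the amino-terminal propeptide of procollagen and activates the lymphatic growth factor VEGF-C, stood at 0.384 and 0.323 in the authors' deposited tables (adjusted p = 0.00656 and 0.000691). Adamts12, which cuts cartilage oligomeric matrix protein, stood at 0.490 of the lean level, next to the limit, and at 0.304 of the WKY level in the authors' deposited tables (adjusted p = 4.18e-05 and 1.36e-11). Adamts20, a versican-cutting enzyme of developing tissue, had the lowest fold of any member against lean hearts, with 0.304 (adjusted p = 0.00498, from the authors' deposited table). The versican- and aggrecan-cutting enzymes Adamts1, Adamts4, Adamts5 and Adamts9 were in none of the tables.

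Every listed serpin was higher in obese hearts, 9 of 9 against lean and 11 of 11 against WKY hearts, beside 53.4% and 54.0% of all listed genes. Of the 48 serpin genes in RefSeq, 39 and 37 were not listed. The shares listed were 18.8% and 22.9%, beside 22.8% and 22.9% of all protein-coding symbols. The 3 largest folds of any member against lean hearts were serpins of clade B, which act inside cells. Serpinb8 (ENSRNOG00000002396), known to inhibit furin, was 17.6 times as high as in lean hearts (adjusted p = 2.98e-15) and 14.3 times as high as in WKY hearts (adjusted p = 2.23e-10) in the authors' deposited tables. Its fold ranks 16 among the 3045 genes that rose against lean hearts. Serpinb10, or bomapin, a serpin of blood-forming cells (ENSRNOG00000002417), had folds of 13.9 and 9.19 in the authors' deposited tables (adjusted p = 2.60e-09 and 1.79e-09). Serpinb1a, the inhibitor of neutrophil elastase and cathepsin G (ENSRNOG00000016581), had folds of 9.99 and 8.52 in the authors' deposited tables (adjusted p = 3.21e-10 and 1.08e-09). Its promoter is shown with the TATA box, at position -62, in capitals, as the one promoter with these letters among the clade B members matched.
Serpinb1a, chr17:31799196-31799445, plus strand: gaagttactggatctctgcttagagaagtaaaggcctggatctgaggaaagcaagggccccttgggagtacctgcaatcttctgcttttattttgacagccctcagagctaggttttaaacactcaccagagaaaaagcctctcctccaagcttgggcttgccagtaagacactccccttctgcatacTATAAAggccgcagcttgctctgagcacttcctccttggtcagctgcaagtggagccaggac

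Serpinb9, the inhibitor that protects cells from granzyme B, rose little but with small adjusted p-values, at folds of 2.27 and 2.09 (5.96e-35 and 1.12e-15 in the authors' deposited tables). Serpinb6b rose 3.56-fold over lean in the authors' deposited table, at an adjusted p of 1.27e-16, and was not in the table against WKY hearts. Serpinb6a, an inhibitor of cathepsin G, rose 2.06-fold over WKY in the authors' deposited table, at an adjusted p of 1.38e-28, and was not in the table against lean hearts. Serpinb6a and Serpinb6b are similar copies, as are several clade B and clade A3 genes, and no label used here says how reads shared by such copies were counted. Their separate values are therefore uncertain.

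The listed serpins outside clade B had folds of 2.81 to 4.50 against lean hearts, below those of Serpinb8, Serpinb10 and Serpinb1a and above that of Serpinb9. Serpina3n, an acute-phase inhibitor, had folds of 4.14 and 5.39 in the authors' deposited tables (adjusted p = 0.000203 and 2.35e-05). Serpinf2, which encodes the plasmin inhibitor alpha-2-antiplasmin, had folds of 4.50 and 3.48 (adjusted p = 0.00059 and 0.0189), and its neighbour Serpinf1, which encodes pigment epithelium-derived factor and inhibits no protease, had folds of 2.81 and 2.71 in the authors' deposited tables (adjusted p = 1.99e-12 and 3.13e-08). Serpini1, or neuroserpin, an inhibitor of tissue plasminogen activator, had folds of 3.56 and 3.01 in the authors' deposited tables (adjusted p = 0.000841 and 0.0106). Serpine2, or protease nexin 1, and Serping1, the inhibitor of complement C1, were in the authors' deposited table against WKY hearts, with folds of 2.09 and 2.16 (adjusted p = 3.56e-17 and 1.44e-06), and not in that against lean hearts.

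**Figure D3:**
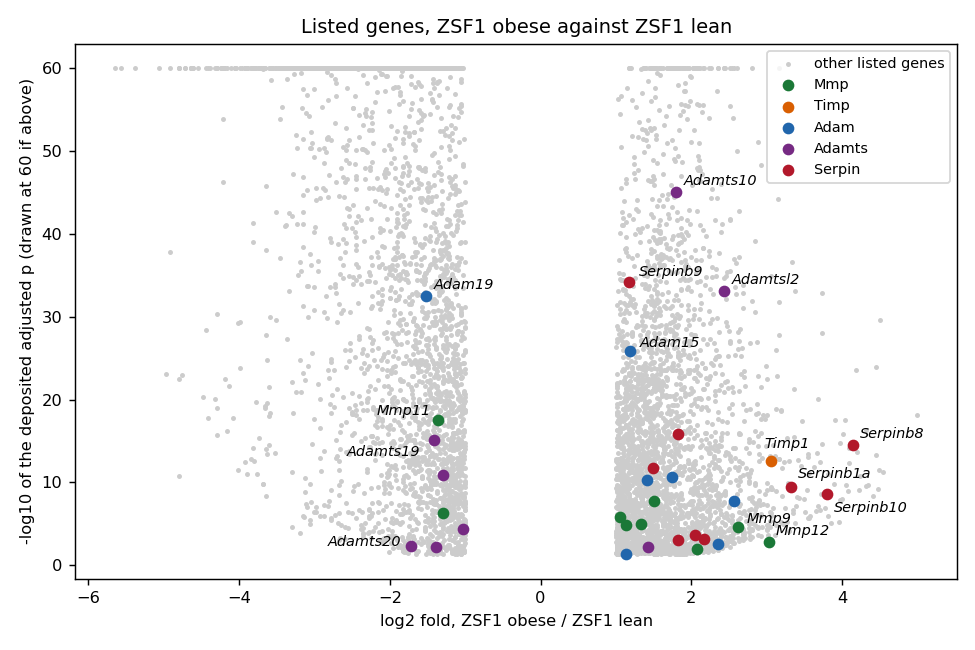
Each point is a gene of the table for ZSF1 obese against ZSF1 lean hearts, with the log2 fold on the horizontal axis and the negative log10 of the deposited adjusted p on the vertical axis (values above 60, and the 17 genes given as 0, are drawn at 60). Members are coloured by family. Serpinb8, Serpinb10, Serpinb1a, Timp1 and Mmp12 lie at the right, and Adamts10 is the highest coloured point.

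The order of the members by fold differed from their order by adjusted p. Serpinb8 ranked 16 by fold among the genes that rose against lean hearts and 3133 by adjusted p among all 5700 listed genes, and Mmp12 ranked 107 by fold and 5216 by adjusted p. Adamts10 ranked 1095 by fold and 1004 by adjusted p, and Adamtsl2, which had both a large fold and a small adjusted p, ranked 342 and 1527. The authors' deposited table gives 17 genes with an adjusted p written as 0, and 0 of them were members.

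In the RefSeq order of protein-coding genes (assembly GRCr8) the members formed 5 pairs of direct neighbours, which together hold 9 genes. These are Serpinb10 with Serpinb8, Serpinb9 with Serpinb6b, Serpinb6b with Serpinb1a, Serpinf1 with Serpinf2, and Adamts15 with Adamts8. Within each pair the listed folds were all above 2, the limit for any listed gene that rose. Every listed serpin was higher, so the shared direction of the serpin pairs is no separate result. Mmp12 lies between Mmp13 and Mmp1b, which were in none of the tables.

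A promoter in RefSeq (build GRCr8) was matched by symbol for 29 of the 41 members. Those without a match were Mmp2, Mmp9, Mmp16, Mmp17, Mmp19, Adam32, Adam33, Adamts8, Adamts15, Adamts19, Serpinb8 and Serping1. Their promoters were not searched for any motif. The AP-1 letters TGANTCA were found in 2 of these 29 (6.9%) and in 7.33% of all 27457 promoters of 300 bases. The SMAD letters CAGACA were found in 8 members (27.6%), among them Timp4, Serpinf1 and Serpini1, beside 20.8% of all promoters, and the TATA letters TATAAA in 4 members (13.8%), beside 14.3%. The GC box GGGCGG was found in 17 members (58.6%), beside 34.9% of all promoters but also 53.3% of the promoters of genes that rose and 62.5% of those of genes that fell against lean hearts. The median GC content was 56.7% over the 23 promoters of members that rose and 69.0% over the 6 of members that fell. It was 52.3% over all promoters, 58.5% for all genes that rose and 61.3% for all that fell against lean hearts. All these shares are a description with no test. The Mmp12, Timp1, Adam19 and Serpinb1a promoters printed above are 4 of these 29.

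The levels of lean and WKY hearts can be compared further by dividing the fold of obese against WKY hearts by that of obese against lean hearts, which gives a derived ratio of lean to WKY. Over the 79 genes in all 3 tables, this ratio had the same direction as the authors' deposited lean against WKY fold in 79 cases. These genes were listed for a change of at least 2-fold in the same rats, so the shared direction was largely fixed in advance. No member is among them, so the shared direction says nothing of the members' ratios. The ratio was farther from 1 than the deposited fold in all 79, with a median difference of 0.34 on the log2 scale. It is therefore a description and not a substitute for a test. The 27 members in both obese tables had derived ratios of 0.62 to 1.68 with a median of 0.883, and 0 of them reached 2 or 0.5, beside 235 of all 4847 genes in both tables. The ratio was below 1 for 19 of the 27 members (70.4%), beside 49.7% of all genes. The lowest were Mmp16 and Adamts12 with 0.62 each and Serpinb10 with 0.66, and the highest was Adam32 with 1.68. Timp1 had a derived ratio of 1.15, Adam8 of 1.02, Adamts10 of 0.986 and Mmp2 of 0.979.

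**Figure D4:**
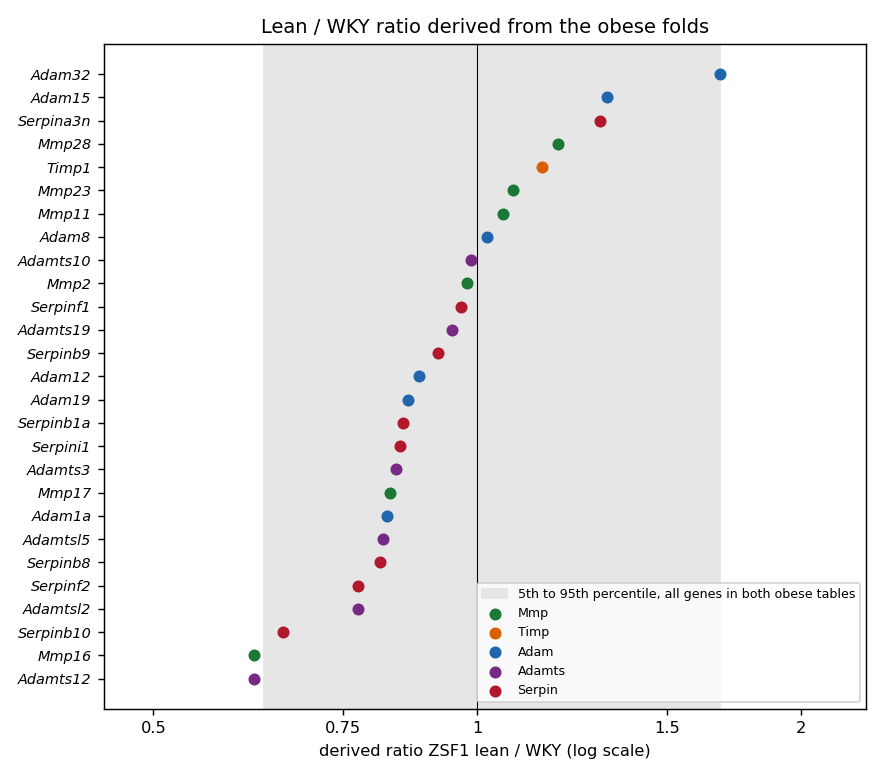
Derived ratio of lean to WKY hearts (horizontal axis, log scale) for the 27 members in both obese tables, coloured by family. The grey band spans the 5th to 95th percentiles (0.633 to 1.68) over all 4847 genes in both tables, with Mmp16 and Adamts12 to its left and Adam32 (1.68) on its right edge.

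Partners of these families were read from lists of known activators, targets and other inhibitors. The counts of each list stand beside 22.8% of all protein-coding symbols listed against lean hearts and 22.9% against WKY hearts. Of all listed genes, 53.4% and 54.0% were higher. Whether any list departs from these shares was not tested. Among 10 genes of the plasminogen system, 5 rose and 0 fell against lean hearts, and 6 rose and 0 fell against WKY hearts. The median fold of those listed was 3.10 against lean hearts, close to the 3.01 of all genes that rose. Against WKY hearts it was 4.57, beside 3.05 over all genes that rose. Plat and Plau, the tissue and urokinase plasminogen activators, had folds of 2.99 and 2.40 against lean hearts and 5.46 and 4.35 against WKY hearts in the authors' deposited tables. Plaur, the urokinase receptor, had folds of 3.10 and 4.79 in the authors' deposited tables. Of 22 other protease inhibitors 11 rose and 2 fell against lean hearts, and 10 rose and 1 fell against WKY hearts. Slpi, the secretory leukocyte protease inhibitor, had folds of 6.28 and 15.1, whereas Spock2, a testican, stood at 0.153 and 0.392 in the authors' deposited tables. In lean against WKY hearts 2 of these 22 inhibitors rose and 0 fell, Spock2 with a fold of 2.41 and Wfdc1 with 2.27 in the authors' deposited table.

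Of 15 substrates of ADAMTS enzymes 9 rose, 0 fell and 6 were not listed against lean hearts (median fold of those listed 3.97), and 11 rose, 0 fell and 4 were not listed against WKY hearts (median 3.71). Vcan, which encodes versican, had folds of 3.97 and 3.71, Fbn1, which encodes fibrillin 1, of 4.03 and 4.20, and Comp of 4.53 and 3.63 in the authors' deposited tables. Of 26 substrates of ADAM10 and ADAM17, 13 rose and 3 fell against lean hearts (median 2.67) and 12 rose and 2 fell against WKY hearts (median 3.49). Vcam1, an adhesion molecule shed by ADAM17, had folds of 6.23 and 4.96, while Cdh2, the N-cadherin of cardiomyocyte junctions, stood at 0.382 and 0.374 in the authors' deposited tables.

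Of 14 proprotein convertases and other metalloprotease regulators, 4 rose and 2 fell against lean hearts, and 5 rose and 2 fell against WKY hearts. Bsg, which encodes the MMP inducer basigin, stood at 0.382 and 0.349 in the authors' deposited tables, and Tspan5, a tetraspanin that escorts ADAM10, had folds of 3.10 and 2.24. Among 10 other matrix metalloproteases 2 rose and 1 fell against lean hearts and 4 rose and 1 fell against WKY hearts, and Bmp1, the procollagen C-proteinase, had folds of 2.87 and 2.59 in the authors' deposited tables. Of 14 cathepsins 5 rose and 1 fell in each, and Ctsz, a lysosomal carboxypeptidase, had folds of 4.38 and 4.82 in the authors' deposited tables. Of 24 serine proteases that serpins bind, 3 rose and 2 fell against lean hearts, and 3 rose and 1 fell against WKY hearts. In this last list Masp1, a protease of the lectin pathway of complement, stood at 0.166 and 0.104 in the authors' deposited tables. The neutrophil serine proteases Elane, Prtn3 and Ctsg were in none of the tables.

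**Figure D5:**
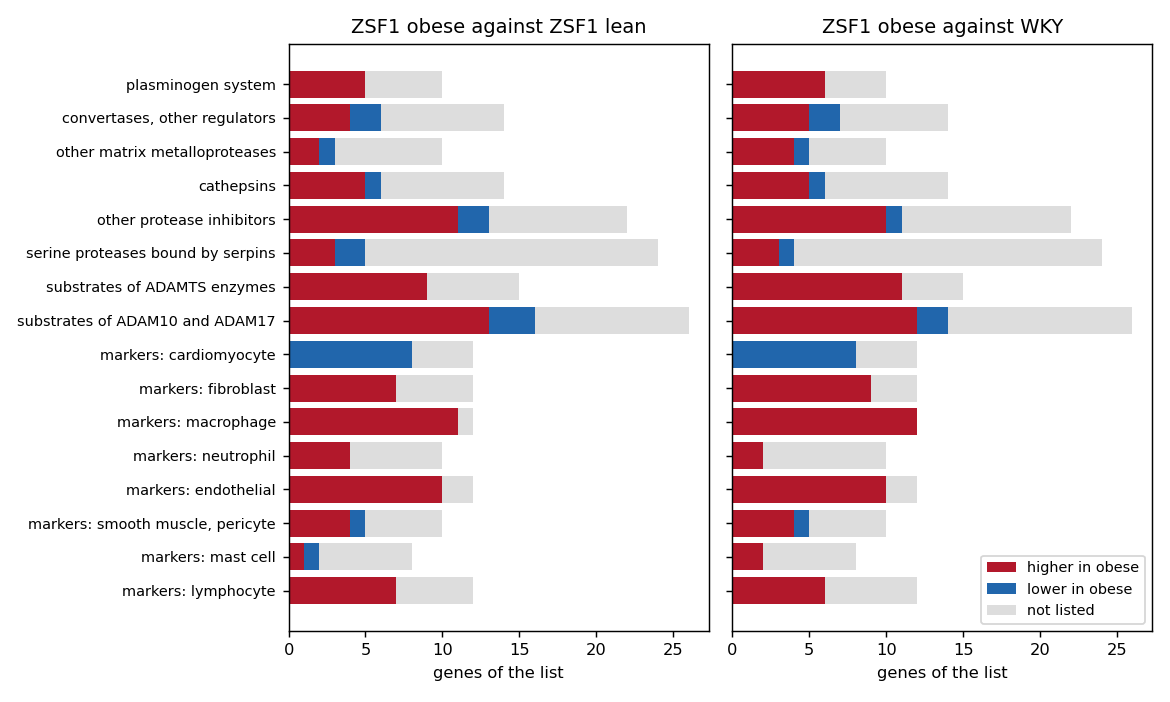
Number of genes (horizontal axis) in each list of partners and of cell type markers that were listed as higher (red), listed as lower (blue) or not listed (grey) in ZSF1 obese against ZSF1 lean hearts (left) and against WKY hearts (right). All 8 listed cardiomyocyte markers were lower and all listed macrophage markers (11 and 12) were higher.

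Markers of cell types were also listed, some higher and some lower, and their relation to the members was not tested. In bulk tissue fewer cells of a type and less RNA per cell cannot be told apart. For comparison, 22.8% of all protein-coding symbols were listed against lean hearts and 22.9% against WKY hearts. Over all listed genes the median fold was 3.01 and 3.05 for those that rose, and 0.314 and 0.312 for those that fell. Of 12 cardiomyocyte markers, 8 fell and 0 rose in both obese comparisons (median folds 0.290 and 0.256). Macrophage markers rose in 11 of 12 cases against lean and in 12 of 12 against WKY hearts (median folds 3.32 and 4.53), endothelial markers in 10 of 12 in both (3.52 and 3.12), fibroblast markers in 7 and 9 of 12 (4.20 and 3.46) and lymphocyte markers in 7 and 6 of 12 (3.51 and 3.22), with 0 falls in each. Smooth muscle and pericyte markers rose in 4 and fell in 1 of 10 in both comparisons, and of 8 mast cell markers 1 rose and 1 fell against lean hearts and 2 rose against WKY hearts. Neutrophil markers rose in 4 of 10 cases against lean and in 2 of 10 against WKY hearts, and 3 of 10 were lower in lean than in WKY hearts. Beside Mmp9, which was in the table against lean hearts and not in that against WKY hearts, the neutrophil genes S100a8 and S100a9 are given in the authors' deposited table with 20.0 and 22.8 times the lean level and were likewise not in that against WKY hearts. The other neutrophil markers that rose against lean hearts, Csf3r and Ngp, with folds of 10.3 and 8.52, were also higher than in WKY hearts, with folds of 2.099 and 6.45 in the authors' deposited tables. In lean hearts S100a9 stood at 0.33 of the WKY level (from the authors' deposited table). The part that cell numbers have in the fold of any member was not tested. Levels per rat are not in the tables, and a listed marker shows a change between groups only, so the labelled tissue could not be checked. The cardiomyocyte markers Myl2, Tnnt2, Tnni3 and Pln were in no table.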

How the data were processed

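Polyadenylated RNA from the left ventricles of 18 male rats (6 WKY, 6 ZSF1 lean, 6 ZSF1 obese) had been sequenced. The submitters' processing notes name HISAT2 2.1.0, HTSeq 0.11.2, DESeq2 1.22.2 and build Rnor_6.0, with no order or settings and no word on strand or shared reads. Per the labels' protocols the kits were RNeasy and stranded TruSeq mRNA with single HiSeq reads. No label gives a sequencing run, so runs and groups cannot be told apart. Per the file headers, the authors' 3 deposited tables give a linear fold, which is a ratio between group levels, and an FDR, which is an adjusted p-value. Both were used unchanged. Folds were 2 or more, or 0.5 or less, for every listed gene, and the largest adjusted p was 0.0498, 0.0499 and 0.000347 in obese against lean, obese against WKY and lean against WKY. Depth per sample is unknown, and each p-value reflects fold, count level and spread between these rats together.

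Members were found by symbol, counted by direction and set beside all listed genes, with Python 3.11.15 and pandas 2.3.3. The symbol rule was checked on example symbols, and the arithmetic of the derived ratio on simulated folds without noise. Of the symbols listed in obese against lean, 5299 of 5690 were found in RefSeq (assembly GRCr8), used for family sizes, gene order and promoters. The members, lists and alternatives were chosen with earlier results of these data known. The naming rule took every Mmp and Timp gene, for each direction the 12 members with the smallest adjusted p, and the 3 largest and 3 smallest folds of each family against lean hearts, members in the lean table, and members in 1 obese table. Against this rule, folds were given for 6 members in 1 table that the rule would only name, and Serpina3n and Serpinf2 were added after their values were seen. Partners and markers named by symbol were also chosen after their values were seen. Protein sequences were not used here.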

Additional observations from a re-analysis of the deposited data

How the results depend on the processing

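No rat could be left out in turn and no paired analysis was possible because the tables hold no values per rat, and the groups share no replicate numbers. With folds limited to 3 or more, or 1/3 or less, the members left were 17 in obese against lean hearts (16 higher, 1 lower), 19 in obese against WKY hearts (15 higher, 4 lower) and 0 in lean against WKY hearts (0 lower). These are 50% and 55.9% of the members in the 2 obese tables, beside 52.4% and 53.2% of all listed genes. With folds limited to 4 or more, or 1/4 or less, 12 members were left against lean hearts (12 higher, 0 lower), 8 against WKY hearts (8 higher, 0 lower) and 0 in lean against WKY hearts (0 lower). These are 35.3% and 23.5% of the members in the obese tables, beside 30% and 31.4% of all listed genes, of which 47.2% and 48.2% were higher. Stricter limits leave fewer genes by construction. An adjusted p under 0.01 left 33, 30 and 1 members in the 3 comparisons, and one under 0.001 left 27, 29 and 1. The stricter of these limits left 79.4% and 85.3% of the members in the obese tables, beside 91.0% and 90.0% of all listed genes, and the other left 97.1% and 88.2%, beside 95.8% and 95.2%. Adding Mmp8 and Serpinh1 gave 2 members in lean against WKY hearts (2 lower), since Mmp8 is in that table and Serpinh1 in none, and moved the counts of the obese tables by 1 or 0. Leaving out the Adamtsl genes, or counting each symbol once, kept all counts within 1.5 times. For Adam33 the derived ratio could not be set beside the deposited one, as it is not in the table for obese against WKY hearts. Depth is unknown, so what it limits cannot be stated.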
